A study of Mus musculus with 9 samples.

Results

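Erythroid and megakaryocyte genes were described across mouse leukemias with and without Af10, the DOT1L partner encoded by Mllt10. The list names 33 genes, and a gene was represented by the probe set that had the highest mean over all 9 arrays among those the platform annotation gives that single symbol. Of these, 31 genes were measured, with 48 probe sets, out of 18194 genes and 45101 probe sets in all. Ahsp and Gp1ba were not analysed here. By role, the 31 genes hold 5 regulators shared by both lineages, 14 erythroid genes and 12 megakaryocyte and platelet genes.

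The deleted and floxed groups are MLL-AF9 leukemias that carried 2 floxed Af10 alleles, made by infecting primary leukemia cells with a tdTomato retrovirus (MSCV-IRES-tdTomato, MIT), either with Cre recombinase (deleted) or empty (floxed). After sorting, the cells were given to secondary recipients, and marrow harvested from these was sorted again for tdTomato. The Hoxa9-Meis1 group is marrow of primary leukemias made by transducing Hoxa9 and Meis1, with no sort or other treatment. Each group has 3 arrays, all of freshly harvested bone marrow on a strain background given as C57/BL6 X 129. Loss of Af10 and the presence of Cre cannot be told apart, and neither can oncogene, transplant generation, vector and sorting between the MLL-AF9 groups and Hoxa9-Meis1. The labels do not say that arrays came from separate mice, so each p-value rests on a spread between samples that may be technical.

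Red cells and platelets come from a common progenitor. GATA1 with its cofactor FOG1 drives both fates, KLF1 binds CACCC boxes of globin and other red cell genes, and GFI1B represses competing programmes. Leukemias driven by MLL-AF9 or by Hoxa9 with Meis1 are mostly blocked at a granulocyte and monocyte progenitor stage, where most genes of the red cell and platelet programmes are little used.

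Levels are log2(intensity + 1), and a difference of 1 is a 2-fold change. Values after ± are the SD within a group (3 arrays), and SE belongs to the difference that limma fitted. A gene was called, that is rose or fell, at a limma adjusted p under 0.05, adjusted over all 18194 genes. The labels were checked first. All 4 Mllt10 probe sets fell in deleted arrays, by 0.76 to 1.05 on the log2 scale, although the representative's call (adjusted p = 0.0293, limma) was lost under 6 of 18 alternatives, with adjusted p up to 0.0900. Those 6 include the fits without deleted replicate 4, deleted replicate 5, floxed replicate 4 and floxed replicate 6. Hoxa9 was 7.35 to 10.20 on deleted arrays, 11.75 to 12.52 on floxed arrays and 13.58 to 13.82 on Hoxa9-Meis1 arrays. Meis1 was 8.35 to 9.42 on deleted, 9.73 to 10.53 on floxed and 6.72 to 7.15 on Hoxa9-Meis1 arrays, lowest where it was transduced; whether its probe sets lie in the transduced sequence is not given in the sources used here, so they do not check that label. All 15 measured myeloid leukemia markers averaged above the background range in every group. So did all 9 B cell markers and 7 of 8 T and NK cell markers, so that count does not tell cell types apart. The median myeloid marker was 11.39 to 12.37 on the 9 arrays, beside 6.58 to 7.57 for B cell markers. Mpo, a granule enzyme of granulocyte progenitors, was at 13.69 to 14.26 on all 9 arrays.

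Sites for GATA and Krüppel-like factors are the best known control elements of these lineages. Of the members called in a comparison, Gata1 had no match to the GATA motif. The promoters of the other 4 are shown. Each is the 250 bases before the gene's start in RefSeq, build GRCm38.p6, read 5′ to 3′ on the gene's strand. Rhd lies at chr4:134864286-134864535 (plus strand), Gfi1b at chr2:28621983-28622232 (minus strand), Klf1 at chr8:84901732-84901981 (plus strand) and Hemgn at chr4:46404184-46404433 (minus strand). Capitals mark AGATAA, or with G last AGATAG, or with T first TGATAA, or with both TGATAG, on either strand:
Rhd: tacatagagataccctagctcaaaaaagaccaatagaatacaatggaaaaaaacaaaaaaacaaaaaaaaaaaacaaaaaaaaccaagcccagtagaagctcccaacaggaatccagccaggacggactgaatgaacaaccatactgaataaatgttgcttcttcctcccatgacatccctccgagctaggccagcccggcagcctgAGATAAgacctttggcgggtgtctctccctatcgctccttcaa
Gfi1b: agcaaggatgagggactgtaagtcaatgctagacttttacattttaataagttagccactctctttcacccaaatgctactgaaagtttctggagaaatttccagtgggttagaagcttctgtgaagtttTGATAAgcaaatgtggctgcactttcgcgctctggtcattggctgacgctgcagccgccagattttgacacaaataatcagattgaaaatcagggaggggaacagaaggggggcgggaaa
Klf1: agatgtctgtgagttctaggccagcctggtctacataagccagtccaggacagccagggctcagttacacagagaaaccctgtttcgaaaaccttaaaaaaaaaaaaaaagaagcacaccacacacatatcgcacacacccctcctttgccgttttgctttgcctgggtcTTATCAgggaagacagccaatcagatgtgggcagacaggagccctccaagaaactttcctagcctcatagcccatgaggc
Hemgn: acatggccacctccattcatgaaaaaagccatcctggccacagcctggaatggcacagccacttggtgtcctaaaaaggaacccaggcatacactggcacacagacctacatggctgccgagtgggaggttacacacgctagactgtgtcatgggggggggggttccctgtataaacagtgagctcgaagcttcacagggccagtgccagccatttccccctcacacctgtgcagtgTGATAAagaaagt
The matches are AGATAA at bases 43 to 38 before the start in Rhd, TGATAA at bases 120 to 115 in Gfi1b, TGATAA on the opposite strand at bases 80 to 75 in Klf1 and TGATAA at bases 13 to 8 in Hemgn. No such match stood in the 250 bases of Gata1, whose window holds 2 CACCC boxes. Of the 31 measured members, 24 had a promoter in the RefSeq table, and 14 of them (58.33%) held at least 1 of these GATA motifs, beside 27.09% of all 27025 promoters in the same window. CACCC, on either strand, stood in 16 of the 24 (66.67%) and in 51.3% of all promoters. These are descriptions of the letters only, and binding was not measured.

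Most of these genes were dim. The median member averaged 6.40 over the 9 arrays, beside 7.79 for all genes. As a gauge of background, 9 probe sets of Y-linked genes lay between 2.97 and 4.71 on all arrays, and 25 of the 31 members were above that range on all 9 arrays. A level above it does not by itself show expression. Of 10 stromal and endothelial markers, 9 averaged above it in every group, and their median was 5.92 to 6.38 over the arrays. The ammonia channel subunit Rhag, the platelet chemokine Ppbp and the platelet tubulin Tubb1 were within it on every array, and Kel, Pf4 and Rab27b on some. The brightest members were Nfe2, the p45 subunit of the factor that drives platelet release, at 10.90 to 11.60, and Tfrc, the transferrin receptor that dividing cells use to take up iron, at 10.54 to 11.16. Members moved little between groups, with a median span of 0.30 between the highest and lowest group mean, beside 0.34 for all genes. Rhd, Hemgn and Gfi1b alone among the 31 spanned more than 1.

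**Figure D1:**
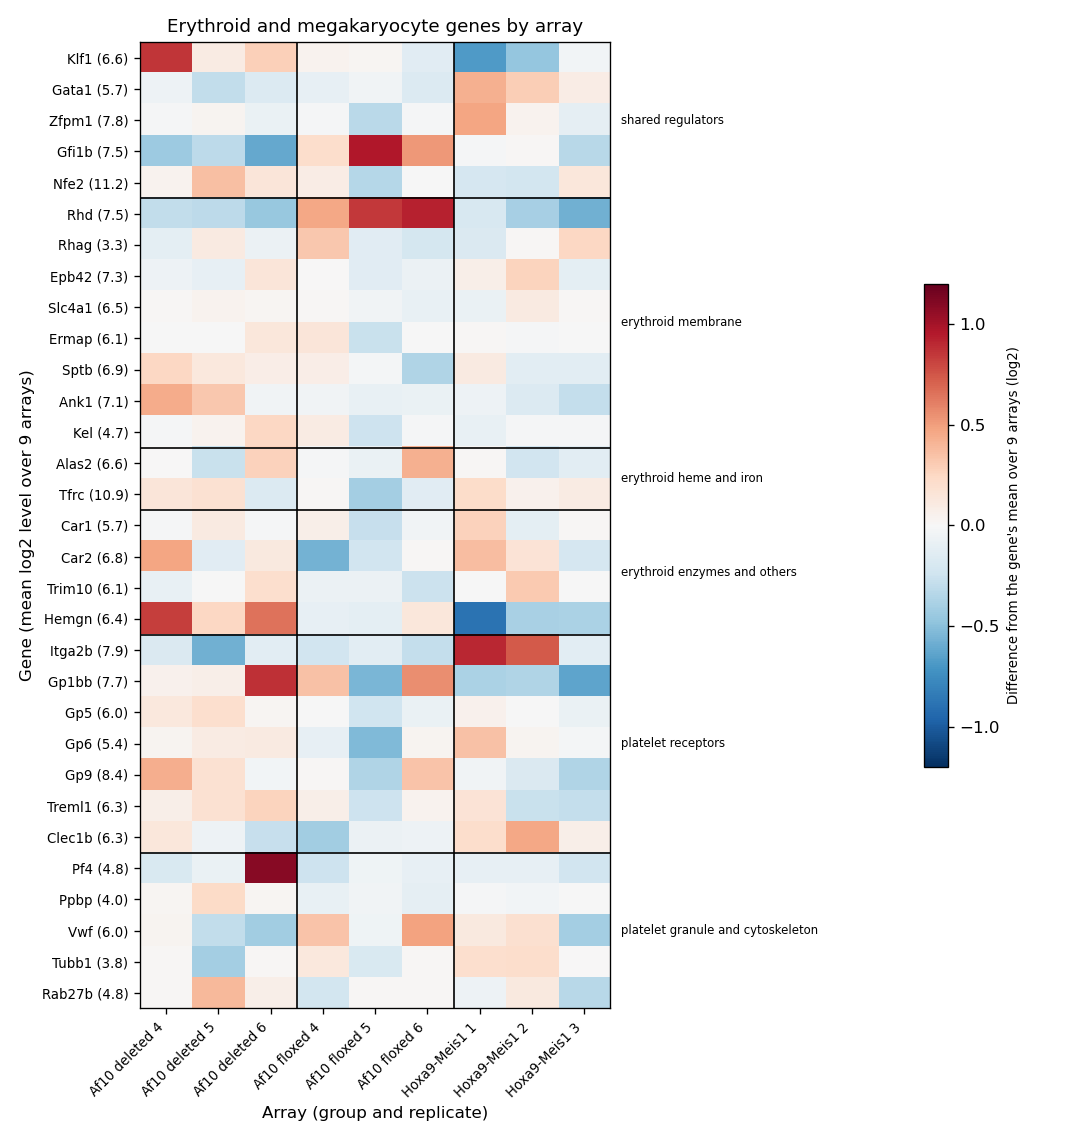
Level of each measured member on each array, as the difference from that gene's mean over the 9 arrays (log2, colour), with genes in rows by role (mean level in brackets) and arrays in columns by group and replicate. Rhd and Gfi1b are high on the 3 floxed arrays, Hemgn and Klf1 are highest on deleted replicate 4 and lowest on Hoxa9-Meis1 replicate 1, and most other rows stay pale.

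With Af10 deleted, 2 of the 31 members fell and none rose: Rhd, a Rh blood group protein of the red cell membrane, and Gfi1b, the repressor that both lineages need. That is 6.45% of the members, beside 6.85% of all genes called in this comparison, 3.63% that fell and 3.22% that rose. At an unadjusted p under 0.05 the count was 5 (16.1%), beside 22.1% of all genes. Over the members the median difference was 0.17, beside 0.06 for all genes, and 23 of 31 (74.19%) were higher in deleted arrays, beside 59.77% of all genes. Without floxed replicate 5 the members' median was 0.07 and 20 were higher. On that array the level of the 3' control probe set of Gapdh exceeded that of the 5' one by 1.03, a sign of RNA quality, against 0.44 to 0.81 on the other 8; its part in the results was not tested.

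Rhd had levels of 7.23, 7.21 and 7.07 on deleted arrays, against 7.99, 8.37 and 8.44 on floxed arrays. Every deleted array was below every floxed array. Rhd averaged 7.17 ± 0.09 in deleted and 8.27 ± 0.24 in floxed leukemias (n = 3 each). It fell by 1.10 on the log2 scale (SE 0.15), which is 2.15-fold (limma adjusted p = 0.00363). The call held under all 18 alternatives tried, with differences of -1.24 to -0.96.

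Gfi1b had levels of 7.07, 7.19 and 6.90 on deleted arrays, against 7.72, 8.47 and 8.03 on floxed arrays, again with no overlap. It averaged 7.05 ± 0.15 in deleted and 8.07 ± 0.38 in floxed leukemias (n = 3 each). The decrease was 2.03-fold, a log2 difference of -1.02 with an SE of 0.19 (limma adjusted p = 0.0160). This call was lost without deleted replicate 4 (limma adjusted p = 0.0517) and without deleted replicate 6 (adjusted p = 0.0522). With both deleted replicate 6 and floxed replicate 5 left out it was lost too (difference -0.74, limma adjusted p = 0.0848).

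The other regulators did not pass the test. Klf1, the activator of globin genes, had levels of 7.47, 6.71 and 6.90 on deleted arrays, against 6.66, 6.64 and 6.48 on floxed arrays. The groups did not overlap, but deleted replicate 4 stood above the rest, and the difference of 0.44 had a limma adjusted p of 0.284. Gata1, the master regulator of both lineages, had levels of 5.65, 5.41 and 5.54 on deleted arrays, against 5.61, 5.67 and 5.54 on floxed arrays, and the groups overlapped (difference -0.07, 95% interval -0.35 to 0.20). Zfpm1, which encodes FOG1, differed by 0.10 and Nfe2 by 0.27.

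Among the other red cell genes, 13 of the 14 were not called, with differences of -0.11 to 0.60. Alas2, the first enzyme of heme synthesis in red cells, had levels of 6.59, 6.33 and 6.86 on deleted arrays, against 6.57, 6.51 and 7.02 on floxed arrays, which overlap. Hemgn, a nuclear protein of blood progenitors and erythroblasts, had levels of 7.24, 6.65 and 7.06 on deleted arrays, against 6.30, 6.28 and 6.54 on floxed arrays. Its groups did not overlap, but the difference of 0.60 missed the threshold (limma adjusted p = 0.100). Ank1, the ankyrin that ties the membrane to the spectrin skeleton, averaged 7.30 ± 0.25 in deleted and 6.98 ± 0.02 in floxed leukemias, and Sptb, which encodes beta spectrin, averaged 7.05 ± 0.08 in deleted and 6.79 ± 0.23 in floxed leukemias. Both were apart between the groups without a call, but only narrowly. The lowest deleted and the highest floxed array were 7.018 and 7.010 in Ank1, and 6.978 and 6.975 in Sptb. The anion exchanger Slc4a1 (difference 0.07), the membrane protein Epb42 (0.06), Ermap (0.08), the Kell antigen Kel (0.15), the carbonic anhydrases Car1 (0.11) and Car2 (0.41), Trim10 (0.17), Tfrc (0.23) and Rhag (-0.02) overlapped.

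None of the 12 platelet genes was called, with differences of -0.48 to 0.41 and 1 of them at an unadjusted p under 0.05. Pf4, the platelet chemokine stored in alpha granules, had levels of 4.60, 4.70 and 5.87 on deleted arrays, against 4.53, 4.73 and 4.68 on floxed arrays. Deleted replicate 6 alone was raised, and 2 of the 9 arrays were above the background range. Itga2b, the platelet integrin chain CD41, had levels of 7.70, 7.30 and 7.74 on deleted arrays, against 7.64, 7.74 and 7.58 on floxed arrays, which overlap. Vwf, the clotting protein of alpha granules and endothelium, was the platelet gene with the unadjusted p under 0.05, at 5.79 ± 0.23 in deleted and 6.27 ± 0.28 in floxed leukemias. Gp5, of the von Willebrand receptor, the collagen receptor Gp6 and the alpha granule receptor Treml1 were each higher on all deleted arrays than on any floxed array. Their means differed by 0.23, 0.28 and 0.22, but the lowest deleted and the highest floxed array lay close together. These were 6.004 and 5.969 in Gp5, 5.440 and 5.434 in Gp6, and 6.343 and 6.341 in Treml1. Ppbp and Rab27b, which serves dense granule release, were apart in the same direction, with mean differences of 0.17 and 0.22. In Rab27b the closest arrays were 4.848 and 4.842, and all Ppbp values and some of Rab27b lay within the background range. Gp1bb (difference 0.21) and Gp9 (0.20), both of the von Willebrand receptor, Clec1b (0.12) and Tubb1 (-0.11) overlapped.

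In all, 11 of 31 members (35.48%) had no overlap between deleted and floxed arrays, beside 25.9% of all genes. Deleted arrays were above in 9 of them and below in Rhd and Gfi1b. In Ank1, Sptb, Gp6, Treml1 and Rab27b the closest arrays of the 2 groups nearly met. For 27 of the 29 uncalled members the 95% interval of the difference lay within 1 of 0, so a change of signal above 2-fold lay outside it. Hemgn and Pf4 are the exceptions. Those 27 include Rhag, Ppbp, Tubb1, Kel and Rab27b, which lie wholly or in part within the background range. There a narrow interval says little about a change in RNA. In bulk samples, fewer cells of a type and less RNA per cell cannot be told apart.

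**Figure D2:**
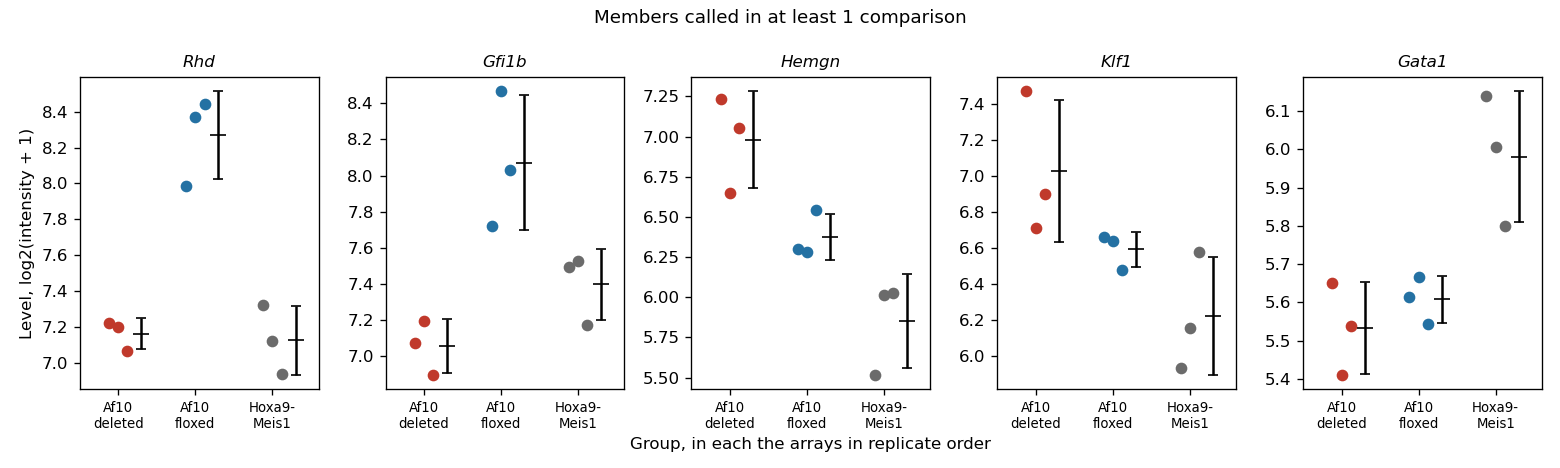
Levels (log2(intensity + 1)) of the 5 members called in at least 1 comparison, with 1 point per array in replicate order, a bar for the mean ± SD of each group and a scale of its own in each panel. Rhd and Gfi1b fell in deleted arrays to 7.17 and 7.05 on average, against 8.27 and 8.07 in floxed arrays, while Hemgn, Klf1 and Gata1 were called in deleted versus Hoxa9-Meis1 leukemias.

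Between floxed MLL-AF9 leukemias and Hoxa9-Meis1 leukemias, 1 of the 31 members rose and none fell, or 3.23% beside 8.89% of all genes called, 5.58% that rose and 3.31% that fell. At an unadjusted p under 0.05 there were 6 (19.4%), beside 23.9% of all genes. The median difference was -0.04, beside -0.01 for all genes. The floxed arrays are shared with the comparison above, so the 2 sets of differences are not independent. The groups were apart in 8 members (25.81%), beside 27.6% of all genes, with floxed arrays above in 3 and below in 5.

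The member that rose was Rhd. It had levels of 7.99, 8.37 and 8.44 on floxed arrays, against 7.32, 7.12 and 6.94 on Hoxa9-Meis1 arrays. Floxed leukemias were higher by 1.14 (SE 0.15), or 2.20-fold (limma adjusted p = 0.00279), and the call held under all 17 alternatives. Gfi1b had levels of 7.72, 8.47 and 8.03 on floxed arrays, against 7.49, 7.53 and 7.17 on Hoxa9-Meis1 arrays. These did not overlap, but the difference of 0.68 missed the threshold (limma adjusted p = 0.0635). Without floxed replicate 4 the difference was 0.85 and passed (limma adjusted p = 0.0325), but without floxed replicate 5 it was 0.48 (limma adjusted p = 0.143). Leaving out any other 1 array did not make it pass either.

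Itga2b had levels of 7.64, 7.74 and 7.58 on floxed arrays, against 8.77, 8.61 and 7.74 on Hoxa9-Meis1 arrays. Hoxa9-Meis1 replicate 3 lay at the level of the MLL-AF9 arrays and the other 2 well above. The difference of -0.72 was not called (limma adjusted p = 0.116), while without Hoxa9-Meis1 replicate 3 it was -1.04 and passed (limma adjusted p = 0.00759). Gata1 was below on all floxed arrays, at 5.61 ± 0.06 in floxed and 5.98 ± 0.17 in Hoxa9-Meis1 leukemias, without a call (difference -0.37, limma adjusted p = 0.0941). Clec1b, the platelet receptor for podoplanin, was likewise apart and uncalled (-0.43), as were Tfrc (-0.30) and Trim10 (-0.23). Klf1 (0.37), Hemgn (0.52), Alas2 (0.22) and Pf4 (0.01) were uncalled too. For 27 of 30 uncalled members the 95% interval lay within 1 of 0, with the same limit for those within the background range.

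Between deleted and Hoxa9-Meis1 leukemias, Hemgn and Klf1 rose and Gata1 fell. These are 3 of 31 members, or 9.68%, beside 15.5% of all genes called, 9.27% that rose and 6.23% that fell. An unadjusted p under 0.05 was reached by 6 (19.4%), beside 28.7% of all genes. The median difference was 0.04, beside 0.05 for all genes. The groups were apart in 7 members (22.58%), beside 34.9% of all genes.

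Hemgn had levels of 7.24, 6.65 and 7.06 on deleted arrays, against 5.52, 6.01 and 6.03 on Hoxa9-Meis1 arrays. The difference was 1.13 (SE 0.19), or 2.19-fold higher (limma adjusted p = 0.00507), and the call held under all 17 alternatives, between 0.82 and 1.29. The floxed arrays, at 6.28 to 6.54, lay between the other 2 groups with no overlap on either side.

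Klf1 had levels of 7.47, 6.71 and 6.90 on deleted arrays, against 5.94, 6.15 and 6.58 on Hoxa9-Meis1 arrays, without overlap. It rose by 0.81 (SE 0.22), or 1.75-fold (limma adjusted p = 0.0375). Leaving out 1 array ended this call in 7 of 9 cases, with limma adjusted p of 0.101 and 0.0624 without deleted replicate 4 or 6, of 0.134 and 0.113 without Hoxa9-Meis1 replicate 1 or 2, and of 0.0501 to 0.0524 without a floxed array.

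Gata1 had levels of 5.65, 5.41 and 5.54 on deleted arrays, against 6.14, 6.01 and 5.80 on Hoxa9-Meis1 arrays, without overlap. It fell by 0.45 on the log2 scale (SE 0.12), or 1.36-fold (limma adjusted p = 0.0375). This call too was lost in 7 of 9 cases with 1 array left out: limma adjusted p was 0.0548, 0.119 and 0.0809 without deleted replicate 4, 5 or 6, was 0.0516 and 0.0533 without floxed replicate 4 or 6, and was 0.135 and 0.114 without Hoxa9-Meis1 replicate 1 or 2. Rhd, at 7.17 ± 0.09 in deleted and 7.13 ± 0.19 in Hoxa9-Meis1 leukemias, differed by 0.04 (95% interval -0.31 to 0.38), and Gfi1b by -0.34 (-0.78 to 0.09). Ank1 was apart and uncalled at 0.41, but passed without deleted replicate 6 (0.55, limma adjusted p = 0.0225). Itga2b differed by -0.79 (limma adjusted p = 0.0643), and by -1.11 without Hoxa9-Meis1 replicate 3 (limma adjusted p = 0.00338). For 25 of 28 uncalled members the 95% interval lay within 1 of 0, again with that limit for those within the background range.

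**Figure D3:**
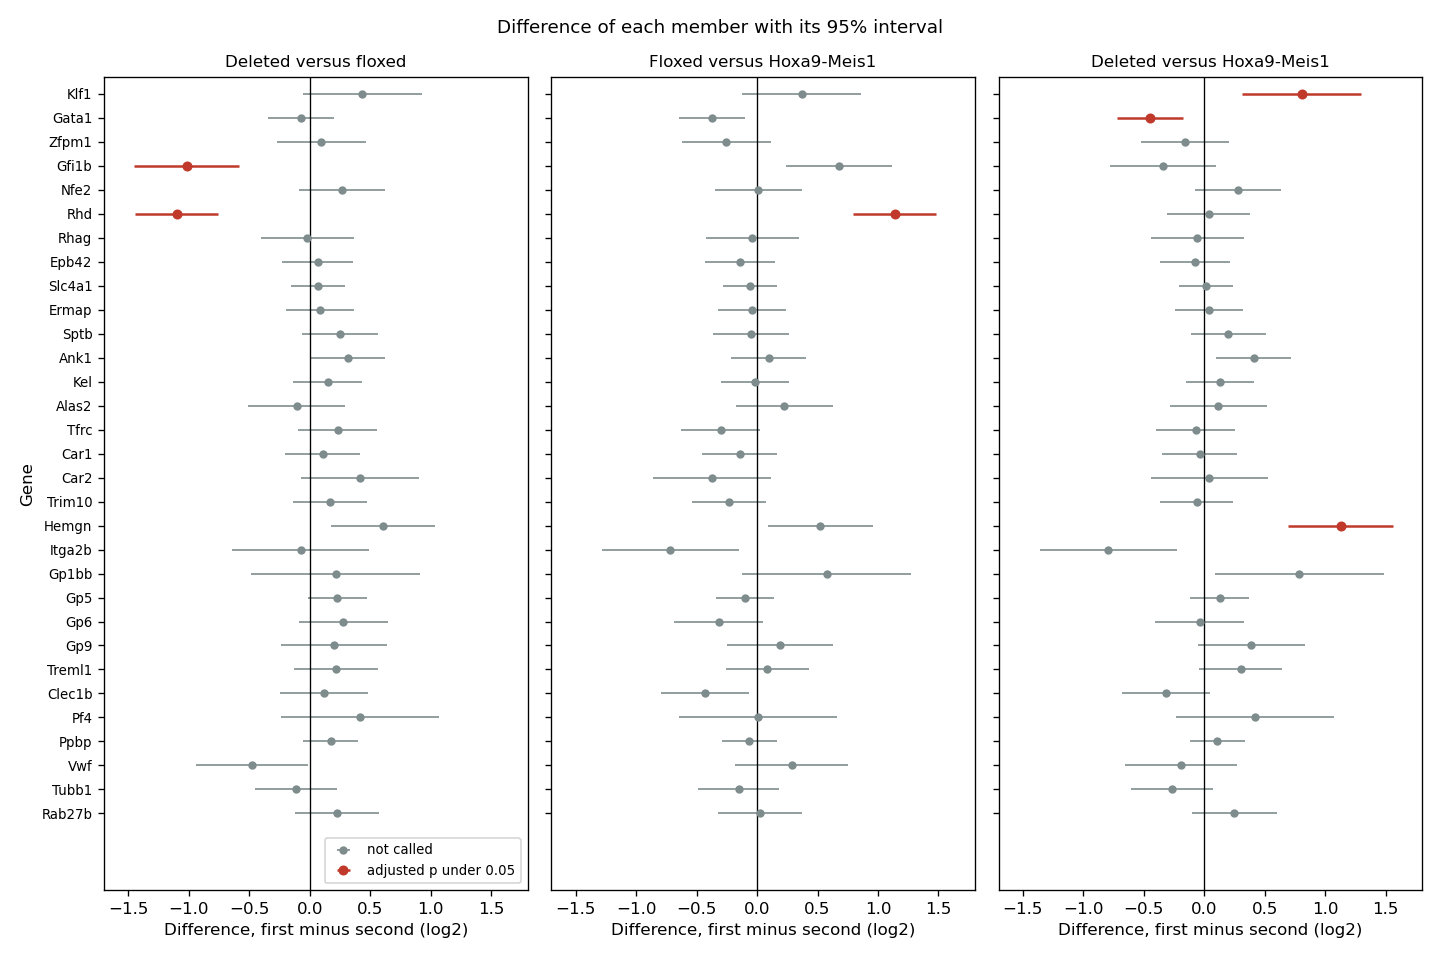
Fitted difference of each member in each comparison (first group minus second, log2) with its 95% interval; red marks members called at a limma adjusted p under 0.05. Rhd and Gfi1b are the red points left of 0 in deleted versus floxed, Rhd the red point right of 0 in floxed versus Hoxa9-Meis1, and Hemgn and Klf1 (right) and Gata1 (left) those in deleted versus Hoxa9-Meis1.

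A few markers of other cell types were called between the same groups. Of all genes, 6.85% were called in deleted versus floxed leukemias, and 22.1% had an unadjusted p under 0.05 in limma. In deleted versus floxed leukemias 1 of 9 B cell markers fell (7 at an unadjusted p under 0.05), Cd79b of the B cell receptor, by 0.75 on the log2 scale (limma adjusted p = 0.00481). The summed intensity of the 9 was 1738 to 1860 on deleted arrays, against 2665 to 3701 on floxed arrays, and 1412 to 2701 on Hoxa9-Meis1 arrays. Of 8 T and NK cell markers 1 rose (5 at an unadjusted p under 0.05), Cd3e of the T cell receptor complex, by 0.93 (limma adjusted p = 0.0027), with sums of 1492 to 3580 on deleted arrays, against 2297 to 4946 on floxed arrays. Of 10 stromal and endothelial markers 1 fell (2 at an unadjusted p under 0.05), the adhesion protein Pecam1, by 2.12 on the log2 scale (limma adjusted p = 0.0265), with sums of 1007 to 1332 on deleted arrays, against 1703 to 2455 on floxed arrays. The B cell and the stromal sums were thus lower on every deleted than on every floxed array, as Rhd and Gfi1b were. Such sums follow the brightest markers, and most markers of these 2 lists went the other way. Of the B cell markers 5 were higher and 4 lower in deleted leukemias (median difference 0.20). Of the stromal and endothelial markers 8 were higher and 2 lower (median difference 0.10). Of the T and NK cell markers 7 were higher and 1 lower (median difference 0.45). The part of such cells in Rhd and Gfi1b was not tested. The Pecam1 call was lost in the fits that left out deleted replicate 4, deleted replicate 5, floxed replicate 5 or floxed replicate 6, and its highest limma adjusted p over 18 alternatives was 0.0996. Of 14 measured markers of mast cells, basophils and eosinophils, none was called between deleted and floxed leukemias (3 at an unadjusted p under 0.05 in limma). Relative to Hoxa9-Meis1 leukemias 3 fell in floxed and 3 in deleted leukemias, beside 3.31% and 6.23% of all genes. The summed intensity of the 14 was 6273 to 7283 on deleted and 4535 to 5038 on floxed arrays, against 19033, 15651 and 5118 on Hoxa9-Meis1 arrays. Cpa3, the mast cell carboxypeptidase, had levels of 5.56, 5.14 and 5.78 on deleted arrays and 5.99 to 8.41 on floxed arrays, against 12.51, 12.75 and 9.99 on Hoxa9-Meis1 arrays. Ms4a2, the beta chain of the IgE receptor, had levels of 8.14, 7.48 and 7.54 on deleted arrays and 6.10, 7.06 and 7.58 on floxed arrays, against 11.23, 10.48 and 7.98 on Hoxa9-Meis1 arrays. Hoxa9-Meis1 replicates 1 and 2 were above all 7 other arrays in 5 of the 14 markers (Cpa3, Ms4a2, Fcer1a, Cma1 and Gata2), as they were in Gata1 and Itga2b, and not in the other 9. Gata2 is also a listed partner of the shared regulators. The pattern is not limited to mast cell markers. Among platelet genes, named after their values were seen, F2r (6.17 and 7.92, against at most 5.46) and Angpt1 (9.36 and 9.65, against at most 8.10) had it too. Its share over all genes was not counted. The median difference of the 14 markers was 0.06 in deleted versus Hoxa9-Meis1 leukemias, with 7 higher and 7 lower, and -0.27 in floxed versus Hoxa9-Meis1 leukemias. The part of such cells in Gata1 and Itga2b was not tested.

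Of the members, 8 had more than 1 probe set, and the following were picked after their values were seen. Of the 48 member probe sets, fitted among all 34958 with 1 symbol, 2 were called in deleted versus floxed (beside 6.51% of all), 3 in floxed versus Hoxa9-Meis1 (beside 9.16%) and 6 in deleted versus Hoxa9-Meis1 (beside 15.2%). The second probe set of Gp1bb, the beta chain of the platelet von Willebrand receptor, had levels of 7.23, 7.65 and 8.61 on deleted arrays and 8.25, 6.96 and 7.94 on floxed arrays, against 5.96, 6.16 and 5.71 on Hoxa9-Meis1 arrays. Both MLL-AF9 groups were thus wholly above Hoxa9-Meis1, by 1.89 in deleted (limma adjusted p = 0.0129) and 1.77 in floxed leukemias (limma adjusted p = 0.0252). The brighter probe set that represents the gene differed by 0.79 in deleted and by 0.57 in floxed versus Hoxa9-Meis1 leukemias and was not called. Gp1bb overlaps Septin5 in the RefSeq annotation, and whether these probes tell the 2 genes apart was not tested.

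The second Zfpm1 probe set had levels of 7.20, 7.19 and 7.44 on deleted arrays, against 8.43, 9.06 and 7.64 on Hoxa9-Meis1 arrays. It fell by 1.10 on the log2 scale (limma adjusted p = 0.0488), while the representative differed by -0.16. All 6 Tfrc probe sets were lower on average in floxed than in Hoxa9-Meis1 leukemias, by -0.30 to -0.90, and 1 of them passed (-0.90, limma adjusted p = 0.0219). The same probe set passed in deleted versus Hoxa9-Meis1 (-0.72, limma adjusted p = 0.0360).

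**Figure D4:**
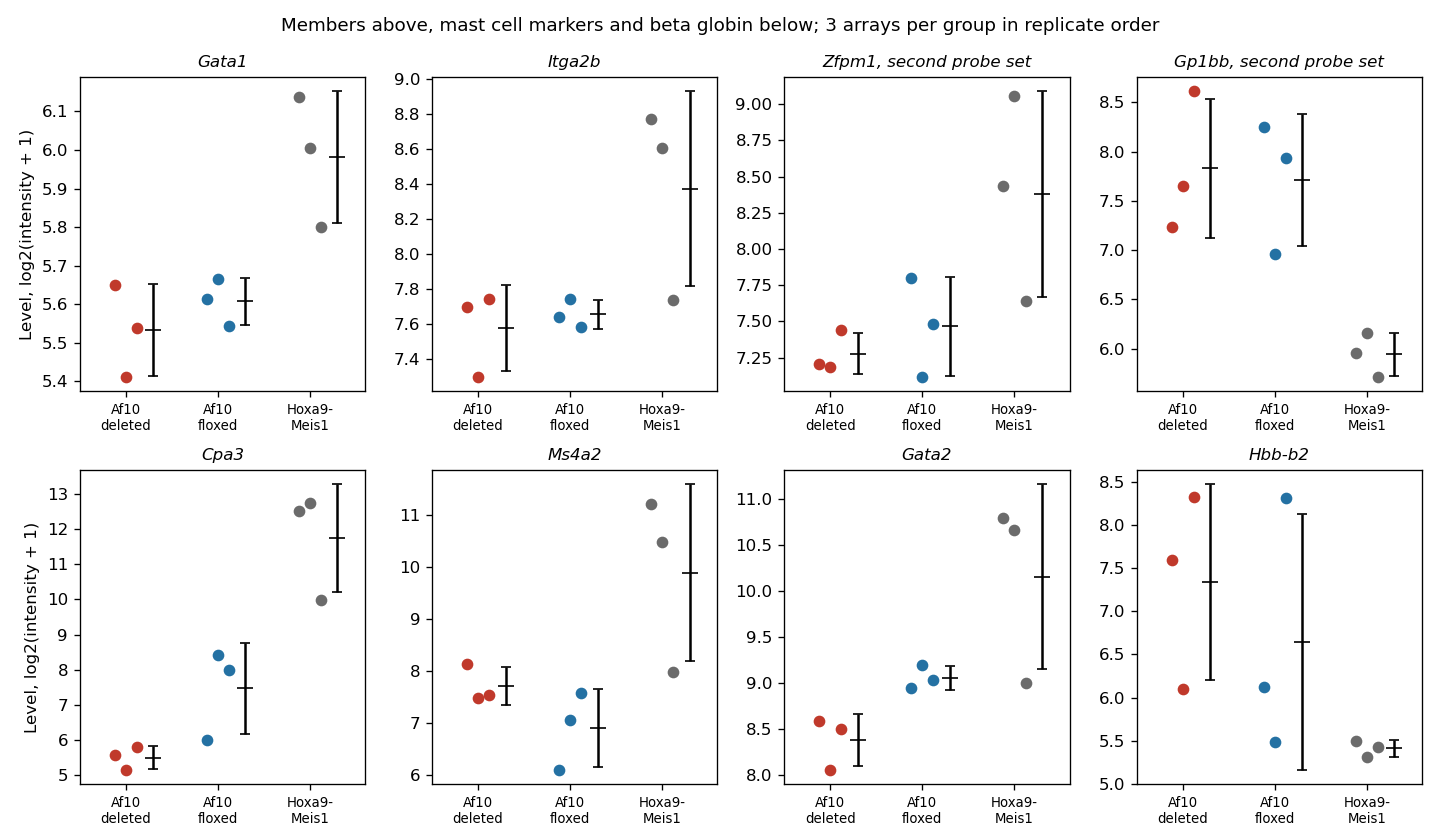
Levels (log2(intensity + 1)) of Gata1, Itga2b and the second probe sets of Zfpm1 and Gp1bb (upper row) and of the mast cell genes Cpa3, Ms4a2 and Gata2 and the globin gene Hbb-b2 (lower row), with 1 point per array in replicate order and mean ± SD bars; each panel has its own scale. Hoxa9-Meis1 replicates 1 and 2 are high and replicate 3 lower in Itga2b, Cpa3, Ms4a2 and Gata2, and Hbb-b2 is spread over more than 2 log2 units within both MLL-AF9 groups.

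Other genes of the red cell programme stayed mostly uncalled. Of 9 hemoglobin genes listed 6 were measured, and the beta globins Hbb-b1, Hbb-bs and Hbb-bt were not, so these data do not describe them. None of the 6 was called in any of the 3 comparisons. The number at an unadjusted p under 0.05 in limma was 1 in deleted versus Hoxa9-Meis1 and 0 in the others. Hbb-b2, a beta globin named here after its values were seen, had levels of 7.59, 6.10 and 8.33 on deleted arrays and 6.12, 5.48 and 8.31 on floxed arrays, against 5.50, 5.31 and 5.43 on Hoxa9-Meis1 arrays. The alpha globin Hba-a2, likewise named after its values were seen, was bright throughout, at 12.79 to 13.09 on the 9 arrays. Hba-a1 was 6.10 to 6.42. Where the Hba-a2 signal comes from was not tested. Of 25 other erythroid membrane and enzyme genes none was called in deleted versus floxed or in floxed versus Hoxa9-Meis1 leukemias (5 and 3 at an unadjusted p under 0.05 in limma), and 1 rose and 1 fell in deleted versus Hoxa9-Meis1. Of 16 other heme and iron genes, Blvrb, the biliverdin reductase abundant in red cells, rose in deleted versus floxed leukemias by 1.37 (limma adjusted p = 0.0406). That call was lost under 11 of 18 alternatives, among them leaving out any of the deleted arrays, floxed replicate 5 or 6, or Hoxa9-Meis1 replicate 1 or 2 (limma adjusted p up to 0.198 over all 18).

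Among 28 other megakaryocyte and platelet genes, 3 rose and 1 fell in deleted versus floxed leukemias. Itgb3, the beta chain that pairs with Itga2b in the fibrinogen receptor, had levels of 7.78, 8.01 and 7.53 on deleted arrays and 9.61, 9.96 and 9.87 on floxed arrays, against 10.49, 10.88 and 10.52 on Hoxa9-Meis1 arrays. All 3 groups were apart. It fell by 2.04 on the log2 scale in deleted versus floxed leukemias (limma adjusted p = 0.000226), a call held under all 18 alternatives, while its second probe set differed by -0.79 and was not called. In floxed versus Hoxa9-Meis1 it fell by 0.82 on the log2 scale (limma adjusted p = 0.0184), lost without floxed replicate 4 or Hoxa9-Meis1 replicate 2. Its partner Itga2b differed by -0.08 in deleted versus floxed leukemias.

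The tetraspanin Cd9 rose by 1.68 (limma adjusted p = 0.00328) in deleted versus floxed leukemias, and held under all 18 alternatives. Selp, the P-selectin of alpha granules, rose by 1.10 (limma adjusted p = 0.0139). That call was lost without floxed replicate 5, without it and deleted replicate 6 together, and with the replicate block. Its other probe sets differed by 0.75 and 1.14 and were not called. Nbeal2, which alpha granules need, rose by 1.30 (limma adjusted p = 0.0335), while its second probe set differed by 0.68 and was not called. The Nbeal2 call was lost under 11 of 18 alternatives, including leaving out any 1 of deleted replicates 4 to 6, floxed replicates 4 and 5 and Hoxa9-Meis1 replicate 1. Tbxas1, the thromboxane synthase, fell in floxed versus Hoxa9-Meis1 leukemias by 2.18 on the log2 scale (limma adjusted p = 0.000149) as 1 of 4 of these genes that fell there, with none that rose. In deleted versus Hoxa9-Meis1 4 rose and 7 fell.

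Of 35 partners and rivals of the shared regulators, 3 rose and 3 fell in deleted versus floxed leukemias. Sox6 and Bcl11a, which act together to silence embryonic and fetal globin genes, both rose. Bcl11a had levels of 9.22, 9.30 and 9.62 on deleted arrays and 6.62, 6.41 and 8.12 on floxed arrays, against 6.54, 6.20 and 5.54 on Hoxa9-Meis1 arrays. Deleted arrays were above all others, and all 7 probe sets of the gene rose in deleted versus floxed leukemias (representative 2.33, limma adjusted p = 0.0138), although the representative's call was lost without floxed replicate 5. Sox6 rose by 4.36 (limma adjusted p = 3.42e-05) with all 4 of its probe sets. The embryonic globins Hbb-y and Hbb-bh1 and the other 4 measured hemoglobin genes were not called beside them. In floxed versus Hoxa9-Meis1, 2 of the 35 rose and 3 fell, and in deleted versus Hoxa9-Meis1, 6 rose and 6 fell.

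By position, the genes on either side of the 5 called members in the RefSeq annotation were looked up after the members' values were seen. Maco1, next to Rhd, differed by -0.78 in deleted versus floxed leukemias (limma adjusted p = 0.215) and Rsrp1, on its other side, by -0.06. Gtf3c5 and Tsc1, on either side of Gfi1b, differed by 0.14 and 0.26. None of these 4 was called in any comparison, nor was either neighbour of Hemgn. Dnase2a, beside Klf1, fell in deleted versus floxed leukemias by 0.95 on the log2 scale (limma adjusted p = 0.0347), a call lost under 8 of 18 alternatives, including leaving out any deleted array, floxed replicate 5 or Hoxa9-Meis1 replicate 1 (limma adjusted p up to 0.180). Glod5, beside Gata1, rose in deleted versus Hoxa9-Meis1 leukemias by 0.57 (limma adjusted p = 0.0250), lost without deleted replicate 4 or 5 or without any 1 of the Hoxa9-Meis1 arrays (limma adjusted p up to 0.0826).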

How the data were processed

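RNA of 9 samples was hybridised to 1-colour Affymetrix mouse arrays, from 100 ng of total RNA per the labels' protocols. The authors deposited linear intensity values per probe set, made with RMA per the submitters' processing notes; no version is given in the sources used here. The quantile step of RMA removes shifts shared by most genes. The intensities ran from 4.60 to 32082, with array medians of 146 to 156, and log2(intensity + 1) was taken, which slightly understates changes of dim genes. At least 2 arrays share a value in 32.4% of probe sets. The number of arrays limits the precision.

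The platform annotation gave 1 symbol to 34958 probe sets, several to 932 and none to 9211. Of the probe sets with 1 symbol, 34754 had a gene ID found in a RefSeq table (GRCm38.p6). No build is named for the deposited values. A gene was represented by its probe set of highest mean, giving 18194 genes. A group-means model over all 9 arrays was fitted with limma 3.58.1 (R 4.3.3), and tests were two-sided, with Benjamini-Hochberg adjustment per comparison. The fit was checked on simulated data for deleted versus floxed. There 62% of 100 genes with a log2 change of 1 and 94% of 100 with a change of 2 were recovered, with 11 false calls. Changes of 2-fold can thus be missed. Alternatives changed the pseudocount (32), normalization, probe set rule, filter, weights, samples, and replicate block. Members and lists were chosen with earlier results of these data known. By the naming rule, called members and Gata1, Klf1, Alas2, Itga2b and Pf4 are given array by array, other members by group, and at most 4 called genes per related list and comparison, those of largest difference, by name; exceptions are marked. Groups follow the labels, and Hoxa9-Meis1 arrays were numbered in accession order.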

Additional observations from a re-analysis of the deposited data

How the results depend on the processing

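Each of 24 differences of 8 members was recomputed under up to 18 alternatives, 9 of which left out 1 array. Of 413 values, 373 kept their direction and side of the threshold, 22 lost a call and 7 gained one. The other 11 changed sign, none of them called in either fit. With 1 array left out, Alas2 ran from -0.2414 to 0.0506 in deleted versus floxed and from -0.0176 to 0.25 in deleted versus Hoxa9-Meis1, Itga2b from -0.158 to 0.0641 in deleted versus floxed, Rhd from -0.058 to 0.1344 in deleted versus Hoxa9-Meis1, and Pf4 from -0.0354 to 0.0687 in floxed versus Hoxa9-Meis1. Pf4 there was also -0.021 with array weights and -0.0333 without deleted replicate 6 and floxed replicate 5, where Alas2 in deleted versus Hoxa9-Meis1 was -0.0176. Counts of called members were 2 in deleted versus floxed, 1 in floxed versus Hoxa9-Meis1 and 3 in deleted versus Hoxa9-Meis1. Without deleted replicate 6 and floxed replicate 5 together they were 1 in deleted versus floxed and 2 in floxed versus Hoxa9-Meis1. Array weights gave 4 in floxed and 5 in deleted versus Hoxa9-Meis1, and a fit of the 2 compared groups alone gave 1 in deleted versus Hoxa9-Meis1. Leaving out 1 array gave 1 to 2 in deleted versus floxed, 1 to 2 in floxed and 1 to 4 in deleted versus Hoxa9-Meis1. Same-numbered MLL-AF9 arrays did not deviate together (correlations 0.03, 0.05 and 0.01). With 3 arrays per group such values cannot settle whether same-numbered samples are pairs. With the replicate block 1 member, Rhd, was called in deleted versus floxed, and Gfi1b had a limma adjusted p of 0.0504. Causes were not tested. Over all genes the share called ran from 2.74% to 7.62%, from 3.74% to 14.0% and from 8.46% to 22.6% over these alternatives in the 3 comparisons. Rhag, Ppbp and Tubb1, and in part Kel, Pf4 and Rab27b, lie within the background range, where differences carry little information.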
